A study of Rattus norvegicus with 6 samples.

Results

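The transcripts described here are those of 10 genes of cellular iron handling, the 4 STEAP metalloreductases (Steap1, Steap2, Steap3 and Steap4) together with Hamp, Tfrc, Slc40a1, Slc11a2, Fth1 and Ireb2. They were taken as every probe set that the platform annotation pairs with exactly 1 symbol, the symbol being that of 1 of these genes. This gave 11 probe sets of 10 genes, with Fth1 measured by a pair of probe sets, out of 15310 probe sets of 14506 genes. The genes were chosen from results already known for the contrast of hCT1 with control, so their values in it are given as a description without p-values.

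The samples were primary neonatal cardiomyocytes of Sprague-Dawley rats, that is, freshly isolated heart muscle cells kept in culture. Cells of 3 samples were kept for 24 h with hCT1 and cells of the other 3 in control serum-free medium. hCT1 is human cardiotrophin 1, a cytokine of the interleukin 6 family that signals through the shared receptor chain gp130, and the methods give its dose as 0.5 nM. The growth text of the labels names a hypertrophic agonist in the medium of all 6 samples, whereas the methods count hCT1 itself among such agonists and describe the control medium as serum-free and non-hypertrophic. RNA was isolated in triplicate, and no source used here says whether each of the 3 came from its own culture, so the p-values measure only the spread among these samples, possibly a technical one.

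Iron circulates bound to transferrin, is taken up through the transferrin receptor, and must be reduced from the ferric to the ferrous form before it can leave the endosome, a step that STEAP proteins can carry out. Inside the cell it is used, stored in ferritin or exported by ferroportin, which the peptide hormone hepcidin removes from the cell surface. Iron regulatory proteins, of which Ireb2 encodes one, bind iron responsive elements in the transcripts of several of these genes and so set their translation or stability. The heart makes its own hepcidin, and cardiomyocytes depend on iron for respiration.

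All values are log2 signals as the authors deposited them, and a difference is the hCT1 mean minus the control mean, with the standard error (SE) of a limma fit over all 15310 probe sets. At an adjusted p under 0.05 in that fit, 762 of the 15310 probe sets were higher with hCT1 (4.98%) and 1506 were lower (9.84%). When the quantiles of the 6 arrays were equalized again, these counts became 917 and 1148. Of the 11 iron handling probe sets, 5 passed this threshold as higher (Steap2, Steap4, Hamp, Tfrc and Ireb2), 0 as lower and 6 in neither direction. In 6 of them all hCT1 samples lay above all control samples, which was so for 13.9% of all probe sets. Because the genes were selected on this contrast, nothing is read from these counts. The 11 differences were all above 0, from 0.01 for Steap3 to 2.79 for Steap4, with a median of 0.15 against a median of −0.0028 over all probe sets tested. For the same reason nothing is read from this common sign or from the medians. In bulk RNA, a change in the number of cells of a type and a change in the RNA per cell cannot be told apart.

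**Figure D1:**
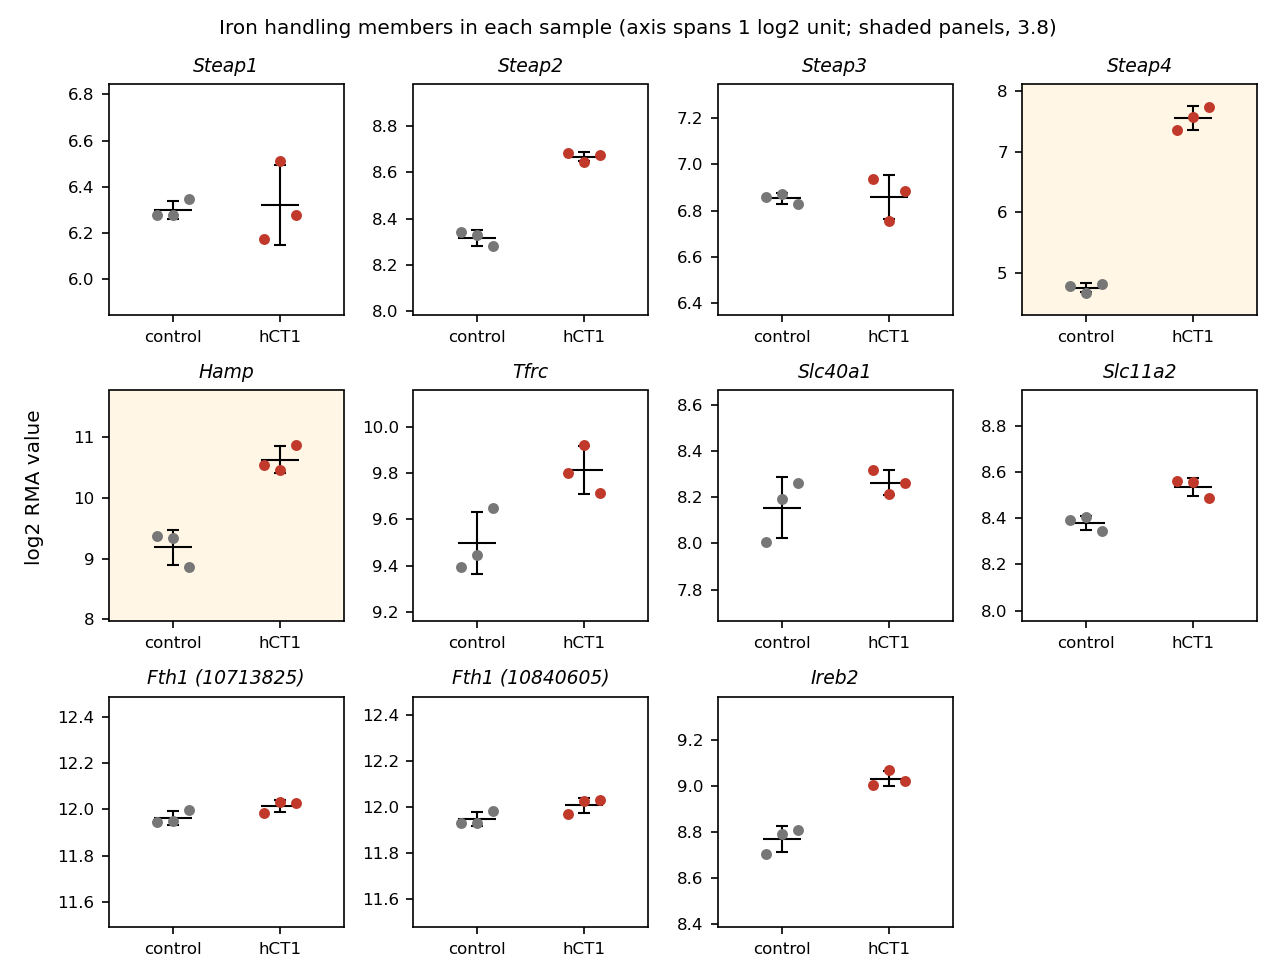
Log2 signal (vertical axes) of each of the 11 iron handling probe sets in the 3 control and 3 hCT1 samples, with points for samples and bars for the group mean and SD; shaded panels have a longer axis. Steap4 and Hamp show the widest separation, whereas the samples of Steap1, Steap3, Slc40a1 and both Fth1 probe sets overlap between groups.

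Steap4, also called Stamp2, encodes a plasma membrane and endosomal reductase of iron and copper that is known in fat and liver as a gene induced by inflammatory cytokines. Its control samples measured 4.79, 4.67 and 4.82, and its hCT1 samples 7.35, 7.57 and 7.74. The lowest hCT1 sample thus lay 2.53 above the highest control sample. The means were 4.76 ± 0.078 (SD, n = 3) and 7.55 ± 0.19 (SD, n = 3), a difference of 2.79 (SE 0.094) or 6.93-fold. The control mean stood at percentile 30.3 of the probe sets, near the dim end of the array, where a fold change computed from such signals tends to be too small. With each sample left out in turn, the difference ranged from 2.70 to 2.89.

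Steap2, another reductase of the endosomal system, was higher with hCT1 by a much smaller amount. The control samples measured 8.34, 8.33 and 8.28, and the hCT1 samples 8.68, 8.65 and 8.67. The groups did not overlap, and the spread within each was narrow, with means of 8.32 ± 0.034 and 8.67 ± 0.019 (SD, n = 3 each). The difference was 0.35 (SE 0.053), or 1.27-fold.

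Steap1, which forms complexes with its relatives but lacks their own NADPH-binding domain, showed overlapping groups. Its control samples measured 6.28, 6.28 and 6.35, and its hCT1 samples 6.17, 6.51 and 6.28, a difference of 0.02 (SE 0.084). The hCT1 samples of this gene held both the lowest and the highest of its 6 values. Steap3, the ferrireductase of the transferrin endosome in red cell precursors, measured 6.86, 6.87 and 6.83 in control and 6.94, 6.75 and 6.89 in hCT1 samples. Its difference was 0.01 (SE 0.063), and here too the hCT1 samples spanned the control samples. Both signs occurred for Steap1 and Steap3 when single samples were left out, with ranges of −0.07 to 0.09 and −0.03 to 0.06.

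In the RefSeq annotation of rat assembly GRCr8, Steap1 and Steap2 are neighbours on chromosome 4 with 0 protein-coding genes between them, and 3 such genes (Zfp804b, Tex47 and Hmgb3l2) separate Steap1 from Steap4. Steap3 lies on chromosome 13. Steap1, the gene next to Steap2, had overlapping groups, as did Steap3 on its other chromosome. Steap4, a few genes away from Steap1, had the widest difference of the family.

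Hamp encodes hepcidin, the peptide hormone that closes the ferroportin export route. Its signal was 9.37, 9.34 and 8.86 in control samples and 10.54, 10.46 and 10.88 in hCT1 samples. The groups were 1.09 apart at their nearest samples, although the spread within them was the widest of all 11 probe sets, with means of 9.19 ± 0.29 and 10.62 ± 0.22 (SD, n = 3 each). The difference was 1.44 (SE 0.15), or 2.70-fold. The low control replicate 3 contributed to it, and without that sample it was at the lower end of its range, 1.27, against up to 1.53 when other samples were left out.

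The 250 bases upstream of the RefSeq start of Steap4 and of Hamp, the genes with the largest differences, are shown because hCT1 signals through a receptor whose known relay is STAT3, and because interleukin 6 is known to act on the hepcidin promoter through STAT3 and bone morphogenetic protein (BMP) signals through GGCGCC elements. Capitals mark matches to 3 motifs searched on both strands, TTCNNNGAA (the palindrome bound by STAT factors), TTGCNNAA (bound by C/EBP factors) and GGCGCC (the core of the BMP response element). Both sequences are from RefSeq, assembly GRCr8, minus strand, at chr4:27054770-27055019 for Steap4 and chr1:95300272-95300521 for Hamp, written 5′ to 3′ and ending 1 base before the start.
Steap4: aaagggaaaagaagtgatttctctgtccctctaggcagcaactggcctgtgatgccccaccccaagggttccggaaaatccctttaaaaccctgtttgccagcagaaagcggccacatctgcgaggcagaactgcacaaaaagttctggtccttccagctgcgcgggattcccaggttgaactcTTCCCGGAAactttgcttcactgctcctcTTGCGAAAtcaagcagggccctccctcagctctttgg
Hamp: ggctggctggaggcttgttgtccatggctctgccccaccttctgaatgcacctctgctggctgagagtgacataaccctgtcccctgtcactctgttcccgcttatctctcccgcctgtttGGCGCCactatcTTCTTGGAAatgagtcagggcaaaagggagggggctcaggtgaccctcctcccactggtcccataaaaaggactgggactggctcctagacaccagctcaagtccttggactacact

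Steap4 held TTCCCGGAA at −66 to −58 from the start and TTGCGAAA at −37 to −30. Hamp held GGCGCC at −129 to −124 and TTCTTGGAA at −117 to −109. Windows were found for 9 of the 10 genes, 10 windows in all because Slc11a2 has 2 starts, with no entry for Fth1. Among them the STAT letters occurred only in Steap4 and Hamp, the C/EBP letters only in Steap4, and GGCGCC in Hamp and in Tfrc, there at −118 to −113. Over all 33469 windows of this length, 7.67% held TTCNNNGAA, 9.22% TTGCNNAA and 8.69% GGCGCC. A match of letters is a description of the sequence and was not tested as a binding site.

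**Figure D2:**
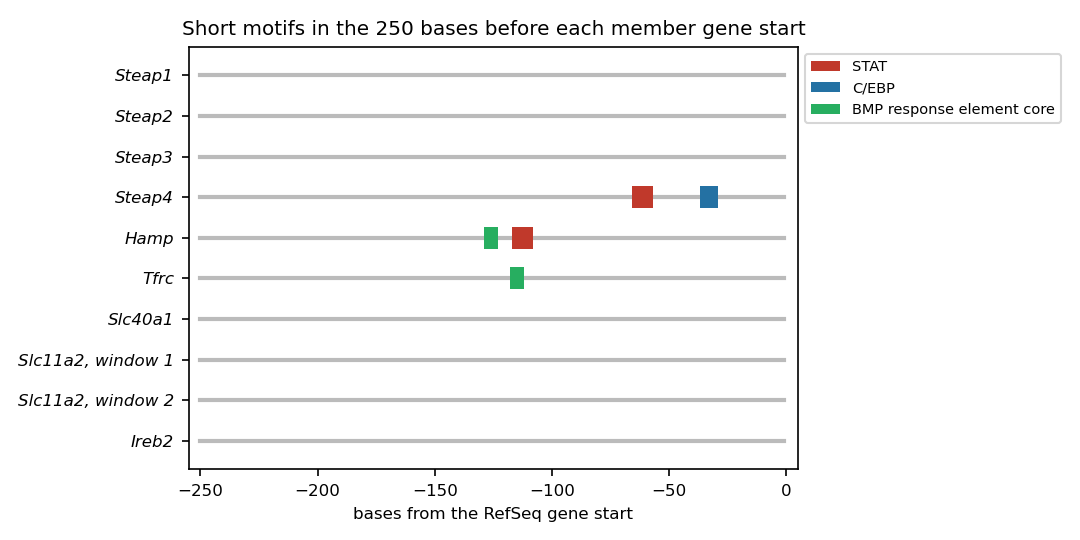
Positions of the 3 searched motifs in the 250 bases upstream of each iron handling gene with an entry, 1 row per window, with distance to the start in bases on the horizontal axis. Marks appear in Steap4, Hamp and Tfrc only.

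Uptake of iron was represented by Tfrc and Slc11a2. Tfrc encodes transferrin receptor 1, through which most cells take in transferrin-bound iron, and it measured 9.39, 9.45 and 9.65 in control and 9.80, 9.92 and 9.72 in hCT1 samples. The groups were apart by only 0.07, between control replicate 3 and hCT1 replicate 3. The difference was 0.32 (SE 0.082), or 1.24-fold, and the gene no longer passed the threshold without control replicate 1 or 2, or without hCT1 replicate 1 or 2, over which omissions it still measured at least 0.26. Slc11a2 encodes DMT1, the transporter that carries ferrous iron out of the endosome. Its control samples measured 8.39, 8.40 and 8.35 and its hCT1 samples 8.56, 8.56 and 8.49, so that the groups were apart by 0.09. The difference of 0.15 (SE 0.054), or 1.11-fold, did not pass the threshold in the fit described above. It passed with the dimmest 40% of probe sets left out or with the quantiles equalized again, and in none of the 6 single-sample omissions.

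Storage was represented by Fth1, the ferritin heavy chain with ferroxidase activity. Probe set 10713825 measured 11.94, 11.95 and 12.00 in control and 11.99, 12.03 and 12.03 in hCT1 samples, and probe set 10840605 measured 11.93, 11.93 and 11.98 against 11.97, 12.03 and 12.03. Both lay at percentile 99.5 of the control signals, and their differences of 0.05 (SE 0.053) and 0.06 (SE 0.053) came from overlapping groups. RefSeq names 6 further entries as Fth1 copies, so signal from near-identical sequences cannot be separated from that of the gene.

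Export was represented by Slc40a1, which encodes ferroportin, the target of hepcidin. It measured 8.01, 8.19 and 8.26 in control and 8.32, 8.21 and 8.26 in hCT1 samples, a difference of 0.11 (SE 0.074) with overlapping groups. Only hCT1 replicate 1 lay above all control samples. Ireb2 encodes iron regulatory protein 2, the RNA-binding sensor that is degraded when iron is ample. It measured 8.71, 8.79 and 8.81 in control and 9.005, 9.07 and 9.02 in hCT1 samples, with means of 8.77 ± 0.056 and 9.03 ± 0.033 (SD, n = 3 each). The groups were apart by 0.19, and the difference was 0.26 (SE 0.056), or 1.20-fold. Ireb2 no longer passed the threshold without control replicate 1 or without hCT1 replicate 2.

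Control replicate 3 was the highest or the lowest control sample in 11 of the 11 probe sets, the highest in 7 and the lowest in 4. Over all probe sets it was an extreme of its group in 73.7%, against 67.5% for control replicate 1 and 58.9% for control replicate 2. Without it the differences were 2.82 for Steap4, 1.27 for Hamp, 0.39 for Tfrc, 0.33 for Steap2 and 0.28 for Ireb2. Those of Slc40a1, Slc11a2, Steap1 and Steap3 were 0.16, 0.14, 0.04 and −0.01, and those of Fth1 0.07 and 0.08.

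**Figure D3:**
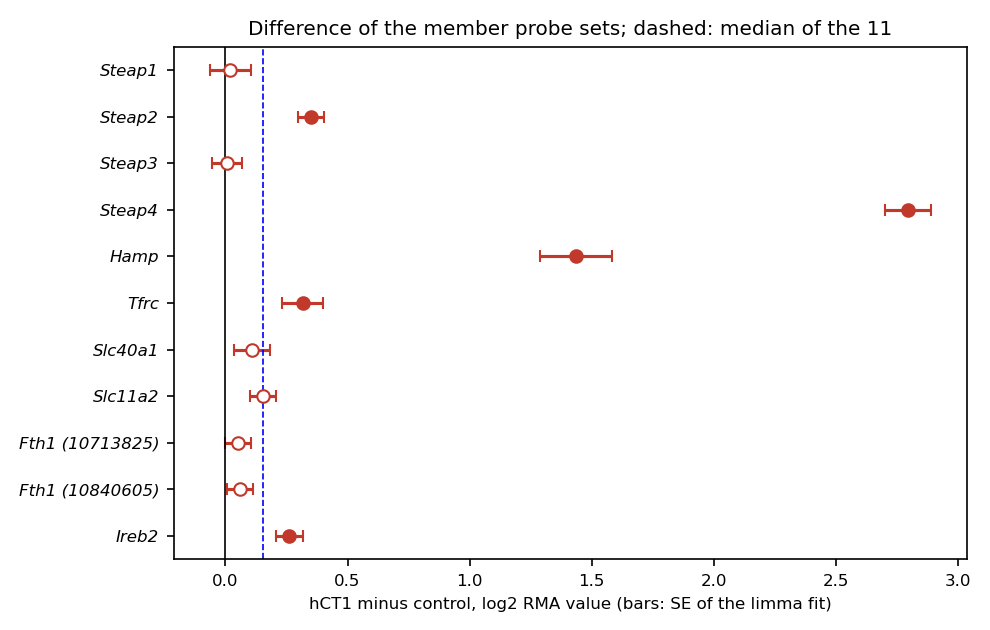
Difference in mean log2 signal, hCT1 minus control, for the 11 iron handling probe sets (points, with bars for the SE of the limma fit), filled where the probe set passed the threshold, with a dashed line at the median of 0.15. Steap4 stands at 2.79 and Hamp at 1.44, and all others lie at or below 0.35.

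The gene most like Steap4 over the 6 samples, by the root mean square difference between log2 values centred on the control mean, was Reg3b, a secreted C-type lectin, at 0.16. Reg1a of the same lectin family followed at 0.20 and Cxcl11, a chemokine, at 0.47. Their differences with hCT1 were 2.62, 2.99 and 2.14. Genes nearest to Hamp were closer, with Prg4 (lubricin) at 0.08, Tmem176a (a membrane protein) at 0.10 and Slco2a1 (a prostaglandin transporter) at 0.14, and differences of 1.44, 1.41 and 1.53. This is likeness in the values of 6 samples in 2 groups, and no test was made of it.

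The transcripts of the rest of the pathway were read from lists of transport, storage, export, sensing, hepcidin control, mitochondrial and heme genes, with each gene represented by its brightest probe set. Of 67 measured genes (78 listed), 9 were higher and 11 lower at a limma adjusted p under 0.05, and 47 did not pass. These shares of 13.4% and 16.4% stand beside 5.09% higher and 9.58% lower over all 14506 genes, and the median difference was 0.01 against −0.0005. Other iron genes passed in both directions, and their median lay near that of all genes. The iron lists were chosen with earlier results of these data known, so nothing is read from their counts. The lower count was the less stable, 2 to 13 genes with single samples left out against 6 to 11 higher genes, and it was 2 without control replicate 1, 3 without control replicate 2 or hCT1 replicate 1 or 2, and 7 without hCT1 replicate 3.

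**Figure D4:**
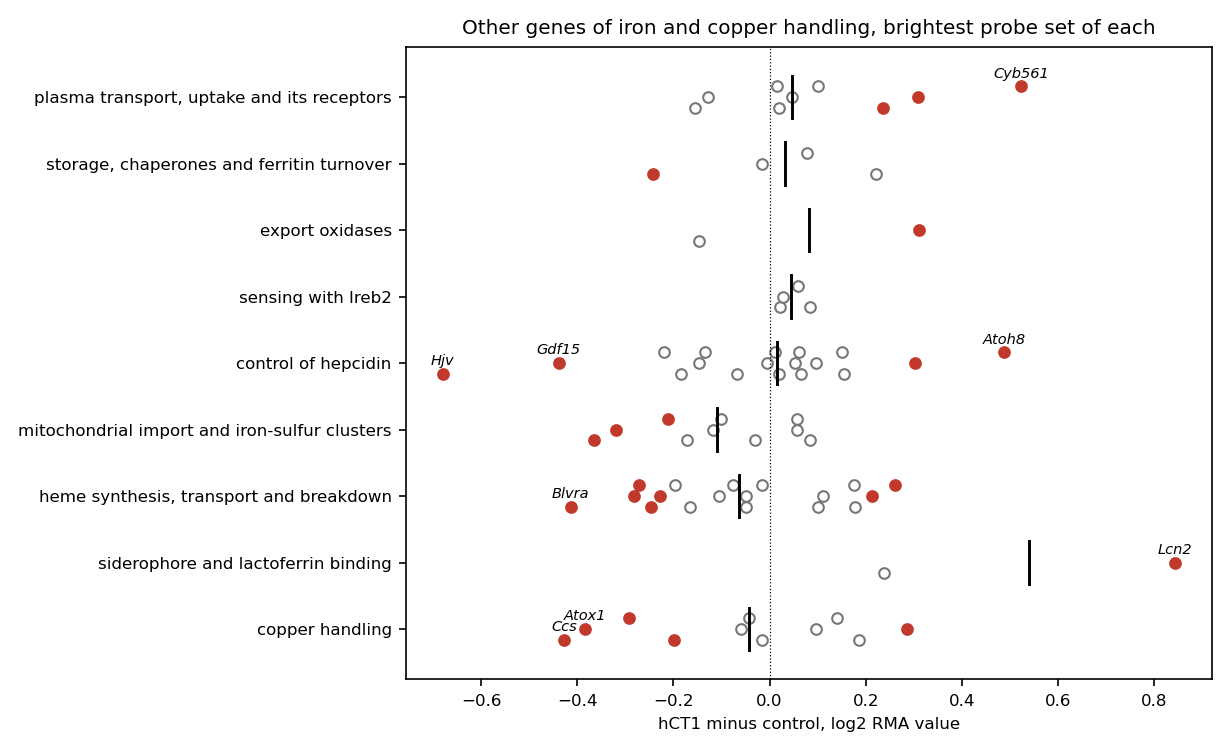
Difference in mean log2 signal, hCT1 minus control, for the other iron genes and the copper genes, 1 point per gene and 1 row per list, with filled points for genes at an adjusted p under 0.05 and a vertical bar at each list's median. Lcn2 lies farthest to the right at 0.84 and Hjv farthest to the left at −0.68.

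Among genes of plasma transport and uptake, 3 of 9 rose and 0 fell (0 also at an unadjusted p under 0.05 and under the one-way test with adjustment). The share of 33.3% that rose stands beside 5.09% of all genes. Slc39a8, the zinc transporter ZIP8 that also carries non-transferrin iron, measured 6.05, 6.05 and 6.08 in control and 6.38, 6.36 and 6.37 in hCT1 samples. It rose by 0.31 (SE 0.051, adjusted p = 0.00462), with groups well apart. Cyb561, a transmembrane electron carrier, rose by 0.52 (SE 0.11, adjusted p = 0.0155) from the dim end of the array, and lost its call without control replicate 1 or hCT1 replicate 3. Rab11fip2, a protein of the recycling endosome, rose by 0.24 (adjusted p = 0.0256), a call that held in only 1 of the 6 single-sample omissions.

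Lcn2, the lipocalin that binds bacterial siderophores and so withholds iron from microbes, rose most of the other iron genes. It measured 8.29, 8.45 and 8.31 in control and 9.22, 9.15 and 9.23 in hCT1 samples, a rise of 0.84 (SE 0.063, 1.80-fold, adjusted p = 5.69e-05). Ltf, lactoferrin and the other gene of that list, differed by 0.24 and did not pass. Cp encodes ceruloplasmin, a copper oxidase that loads iron onto transferrin. It measured 5.84, 5.86 and 5.90 against 6.19, 6.22 and 6.14 and rose by 0.31 (SE 0.054, adjusted p = 0.00584), whereas its relative Heph, with a difference of −0.15, did not pass.

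Of 18 genes in the control of hepcidin, 2 rose and 2 fell, 11.1% each, beside 5.09% higher and 9.58% lower over all genes. Hjv, hemojuvelin, the BMP co-receptor that is best known in liver and muscle, measured 7.43, 7.56 and 7.44 in control and 6.80, 6.80 and 6.79 in hCT1 samples. It fell by 0.68 (SE 0.058, adjusted p = 0.000117), with the hCT1 samples nearly equal to each other. Gdf15, a stress cytokine of the same superfamily, fell by 0.44 (SE 0.093, adjusted p = 0.0146), and the call was lost without control replicate 1 or 2 or hCT1 replicate 2. Atoh8, a transcription factor that acts on the hepcidin gene in liver, rose by 0.49 (SE 0.070, adjusted p = 0.00218), and Bmpr2, a type II BMP receptor, by 0.30 (SE 0.054, adjusted p = 0.00657). Bmp6, the main BMP ligand of the liver response to iron, and Id1, a standard target of BMP signals, differed by 0.02 and −0.07 and did not pass.

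The transcripts of the mediators and targets of gp130 were measured beside Hamp and Steap4. Of 8 such genes 8 rose and 0 fell (0 also at an unadjusted p under 0.05 and under the one-way test), with a median difference of 0.29. Over all 14506 genes 5.09% were higher. This list was chosen with earlier results of these data known, so nothing is read from its count, and its relation to Hamp and Steap4 was not tested. Under the one-way test with adjustment 6 were higher. Socs3, the feedback inhibitor of gp130 signals, measured 6.74, 6.66 and 6.59 in control and 8.08, 8.005 and 7.98 in hCT1 samples and rose by 1.36 (SE 0.062, adjusted p = 3.44e-06). Osmr, a receptor chain that pairs with gp130, and the kinase Jak2 rose by 0.86 and 0.77, and the transcription factor Cebpd by 0.29 (adjusted p = 0.0315). Stat3 itself rose by 0.28. Socs3, Osmr, Jak2 and Stat3 passed in all 6 single-sample omissions, whereas Cebpd, Junb, Lifr and Il6st lost their calls without control replicate 2 and without hCT1 replicate 1, which left 4 of the 8.

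Of 10 genes of mitochondrial import and iron-sulfur clusters 0 rose (0 also at an unadjusted p under 0.05 and under the one-way test) and 3 fell (1 under the one-way test), with a median difference of −0.11. The share of 30% that fell stands beside 9.58% of all genes. Slc25a28, mitoferrin 2, which brings iron into mitochondria, measured 8.22, 8.34 and 8.21 in control and 7.90, 7.86 and 7.91 in hCT1 samples and fell by 0.37 (SE 0.058, adjusted p = 0.00381). Iscu, the scaffold of iron-sulfur assembly, fell by 0.32 (adjusted p = 0.0132), and its call was lost without control replicate 1 or hCT1 replicate 1. Hscb, a cochaperone of that assembly, fell by 0.21 (adjusted p = 0.0479), a call that held in only 1 of the 6 omissions.

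Of 18 heme genes 2 rose and 5 fell, with a median difference of −0.06, and none of the 7 calls held in all 6 omissions. The shares of 11.1% and 27.8% stand beside 5.09% higher and 9.58% lower over all genes. Cpox and Alas1, enzymes of heme synthesis, rose by 0.26 and 0.21 (adjusted p = 0.0183 and 0.0403). Blvra, a biliverdin reductase, fell by 0.41 (adjusted p = 0.0255) and Hmox1, heme oxygenase 1, by 0.28 (adjusted p = 0.0256), as did Flvcr2, Blvrb and Uros by 0.27, 0.25 and 0.23. Among 4 measured genes of storage and ferritin turnover, only Pcbp2, an iron chaperone, passed, lower by 0.24 (adjusted p = 0.0393) in 1 of its 4 probe sets, the others differing by −0.12, −0.11 and 0.09. The Pcbp2 call held in only 1 of the 6 omissions. The 6 probe sets of the ferritin light chain Ftl1 differed by −0.07 to −0.02 and did not pass. RefSeq names 21 further entries as Ftl1 copies, so signal from near-identical sequences cannot be separated from that of Ftl1.

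Of the 4 other genes listed under iron sensing, 0 passed limma in either direction, 0 had an unadjusted p under 0.05 and 0 passed the one-way test with adjustment. These are Aco1 (iron regulatory protein 1), Fbxl5, Skp1 and Cul1 (parts of the ligase that degrades iron regulatory proteins), with differences of 0.03, 0.06, 0.02 and 0.08. The difference of 0.26 in Ireb2 was thus seen beside values near 0 for these 4 genes.

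Iron responsive elements lie at the 3′ end of Tfrc and of one form of Slc11a2, where binding stabilises the transcript, and at the 5′ end of Fth1 and of Slc40a1, where it blocks translation. The values above were 0.32 and 0.15 for the former pair, in groups apart by only 0.07 and 0.09, and 0.05 to 0.11 for the latter, in overlapping groups. Slc11a2 did not pass the threshold. Of all probe sets, 13.9% had all hCT1 above all control samples. Because these genes were selected on this contrast, nothing is read from this split, and a part of the elements in it was not tested. Of the 5 other measured transcripts with such an element (Ftl1, Alas2, Epas1, Cdc14a and Cdc42bpa), 0 passed limma, 0 had an unadjusted p under 0.05 and 0 passed the one-way test with adjustment. Their differences ran from −0.05 for Cdc42bpa to 0.11 for Cdc14a. The array measures transcripts, not translation.

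STEAP proteins also reduce copper, so 11 measured genes of copper handling were read in the same way, and 1 rose while 4 fell. These shares of 9.1% and 36.4% stand beside 5.09% higher and 9.58% lower over all genes. The copper list was also chosen with earlier results of these data known, so nothing is read from its count. Ccs, the copper chaperone of superoxide dismutase, fell by 0.43 (SE 0.077, adjusted p = 0.00698), and Atox1, the chaperone that feeds the copper pumps, fell by 0.38 (SE 0.065, adjusted p = 0.00522). Commd1 and Cox17 fell by 0.29 and 0.20 (adjusted p = 0.0394 and 0.038), each in only 1 of the 6 omissions. Slc31a2, the low affinity copper transporter CTR2, rose by 0.29 (SE 0.057, adjusted p = 0.0112). The median difference of the copper genes was −0.04, against −0.0005 over all genes.

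Markers of the labelled cell type and of others that a heart culture or iron transcripts could come from were summed in each sample. The counts below stand beside 5.09% higher and 9.58% lower over all genes. None of the 10 cardiomyocyte markers lay below the 40th percentile of mean signal, nor did any of the 8 fibroblast markers. The summed signal of 10 cardiomyocyte markers was 14.67 in all control samples and 14.55 to 14.62 in hCT1 samples on the log2 scale, with 3 lower (Tnni3 by 0.62, Myh6 by 0.45, Ttn by 0.22) and 0 higher (0 also at an unadjusted p under 0.05). All 10 hepatocyte markers and all 8 measured erythroid markers lay below that percentile, with summed signals of 7.51 to 7.65 against 7.44 to 7.55 and of 7.80 to 7.85 against 7.75 to 7.84. In each of these lists 1 gene was lower (Serpina1 by 0.79, Ahsp by 0.40) and 0 were higher by limma, with 1 hepatocyte and 0 erythroid markers higher at an unadjusted p under 0.05 and 0 of both by the one-way test with adjustment. Macrophage markers, of which 7 of 10 lay below that percentile, summed to 9.30 to 9.39 in control and 9.04 to 9.23 in hCT1 samples, with Lyz2 lower by 0.52. Of 8 fibroblast markers 0 passed in either direction (1 higher and 2 lower at an unadjusted p under 0.05, and 0 by the one-way test with adjustment), with sums of 13.08 to 13.16 and 13.01 to 13.04, and of 7 endothelial markers only Emcn passed, lower by 0.47, with sums of 10.15 to 10.32 and 10.16 to 10.21. The calls of Ttn and Emcn each held in only 2 of the 6 single-sample omissions. The part of the lower cardiomyocyte markers in the results was not tested.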

How the data were processed

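RNA of 6 samples, 3 per group, was measured on 1 Affymetrix whole-transcript rat array each. The authors deposited log2 values made with RMA, which corrects background, equalizes quantiles between arrays and condenses probes into probe sets. The labels name Affymetrix Expression Console without versions. The values were used as deposited and hold no detection calls, so the number of arrays limits the precision. Of 29215 probe sets, the platform annotation gave 15310 exactly 1 symbol, 323 several and 13582 none, and those with 1 were tested. Symbols matched RefSeq (GRCr8) for 15279 probe sets. A gene was represented by its brightest probe set, except that all probe sets of the 10 genes are given.

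Groups were compared with limma 3.58.1 in R 4.3.3 (lmFit, eBayes without trend, 2-sided), and p-values were adjusted by Benjamini-Hochberg across all 15310, with 0.05 as threshold. With 3 samples a group, permuting labels exactly reaches 0.1 at the lowest and was not used. The fit was tested on simulated data. The 10 genes and the lists (8 of iron genes, copper, iron responsive elements, gp130 and 6 of markers) were chosen with earlier results of these data known. Of each list, genes past the threshold were named, at most the 4 largest in each direction, or the 2 largest differences where none passed. Genes named beyond this rule were chosen after their values were seen. Likeness was ranked for Steap4 and Hamp. Alternatives were a filter at the 40th percentile, all probe sets, another quantile normalization, median centring, trend with robust fitting (statmod 1.5.0), array weights, the methods' one-way test, a threshold of 0.01, each sample left out, a replicate block and the mean of a gene's probe sets.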

Additional observations from a re-analysis of the deposited data

How the results depend on the processing

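Steap2, Steap4 and Hamp passed the threshold under every alternative run, omissions of single samples included. No difference of the 11 iron handling probe sets that passed changed sign. The genes were selected on this contrast, so the repeated passes are a description and are not taken as support. The filter kept Steap4 through its hCT1 samples, as its control mean of 4.76 lay below the cut of 5.70. The number of iron handling probe sets past the threshold was 5, beside 2268 of all 15310. It rose to 6 with the filter, where 2779 of 9186 passed, and with another quantile normalization, where 2065 of 15310 did (Slc11a2 added in both). It fell to 3 at an adjusted p of 0.01, beside 859 over the array. With single samples left out it ranged from 3 to 5, beside 1242 to 2683. Of the recomputed differences of the iron handling probe sets, 153 moved by less than 1 SD, and 1, that of Steap2 under another quantile normalization, moved to 0.39. The filter, all probe sets, trend with robust fitting, the one-way test and the replicate block cannot change a difference. Their unmoved values, counted among the 153, thus say nothing on stability. Higher probe sets over the array numbered 376 under the methods' one-way test, 296 at 0.01, 490 with the replicate block and 417 to 873 with single samples left out, and lower ones 675, 563 and 803 to 1810 (one-way test, 0.01, omissions). Other iron genes that rose numbered 5 under the one-way test and 5 at 0.01. Those that fell numbered 4 with all probe sets, 7 with quantile normalization, 4 under the one-way test, 2 at 0.01, 4 with the replicate block and 2 to 13 with omissions. Copper genes that rose numbered 2 with the filter, 2 with quantile normalization, 2 with trend and robust fitting and 0 at 0.01. Copper genes that fell numbered 2 with all probe sets, with quantile normalization, under the one-way test, at 0.01 and with the replicate block, and 2 to 3 with omissions. The cause of these moves was not tested. Fits with a sample left out hold fewer samples, yet without control replicate 3 the array counts rose to 873 and 1810. Same-numbered samples did not deviate together (r of −0.025, 0.046 and −0.285), so the numbers were not taken to pair the samples. With the replicate block 4 iron handling probe sets passed, without Tfrc. The remaining 114 recomputed counts equalled the main count or stayed within 1.5 times it. They include counts of 0 in every setting, for which no ratio exists. These are the iron handling probe sets called lower and the other transcripts with an iron responsive element called in either direction.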
